A study of Mus musculus with 16 samples.

Results

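Mouse embryonic stem cells that had been held under an FGF receptor inhibitor and then stimulated for 8 h were compared with cells given vehicle only. The comparison used 4 of the 16 arrays of the series, 2 labelled 8h and 2 labelled DMSO, and asked which genes were back at or past the vehicle level by 8 h. The cells were the line E14tg2a, grown on gelatin with serum and the self-renewal cytokine LIF, and per the series' design text they carried a tamoxifen-inducible, constitutively active fusion of the kinase c-Raf. The 8h cells had received 250 nM PD173074, an inhibitor of FGF receptors, for 24 h and then 250 nM 4-hydroxytamoxifen (4OHT), which switches the fusion on, for 8 h. The DMSO cells are labelled with DMSO as their agent, and their description calls them untreated, whereas the treatment text that all samples share names the inhibitor; they were taken as vehicle only. A further 2 arrays, labelled 0h, held cells with the inhibitor for 24 h and no 4OHT, and served to find which genes the inhibitor had moved. Cells given 4OHT without the inhibitor, and cells without the fusion given 4OHT, were not analysed here, so the 8h cells differ from the DMSO cells in the inhibitor and in 4OHT together. No label states that replicates are independent cultures, and the p-values therefore measure only how much these arrays vary, which may be technical.

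FGF receptors signal through Ras and the kinases Raf, Mek and Erk. In stem cells Fgf4 made by the cells themselves keeps this cascade active, and it moves cells from the naive state of the early embryo towards the formative state that precedes differentiation. Erk activity also switches on its own brakes, among them the Sprouty proteins, the Spred proteins and the dual-specificity phosphatases (Dusp), together with ETS factors such as Etv4, so the levels of these genes are a common readout of the pathway. An active Raf fusion enters the cascade below the receptor that PD173074 blocks.

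Levels are log2 signal minus the 75th percentile of the array, so that 0 is the brightness of that percentile, and differences are on the log2 scale with n = 2 arrays a group throughout. Of the 20972 genes with a probe, 15660 were tested. The 4 arrays had 56.5% to 65.1% of their spots well above background, and no spot was saturated. All 11 embryonic stem cell markers were measured on every DMSO, 0h and 8h array, and their summed level lay at 9.98 and 9.74 on the DMSO arrays and 9.92 and 9.72 on the 8h arrays. Of 10 fibroblast markers, which would mark feeder cells, 6 were bright enough to test, with a summed level of -0.09 and -0.30 in DMSO and -0.34 and -0.33 at 8h.

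The 2 deposited records of which array is which sample differ. For 8 of the 16 arrays the scanner file is attached to another sample than the one whose column in the value table it equals, and among these are DMSO replicate 2, 0h replicate 2 and 8h replicate 1. The value table was followed. With the arrays as attached, 368 genes passed the test in 8h vs DMSO in place of 2835. The median spread within groups, over all groups, was 0.28 in place of 0.23 (residual SD, log2). For the 8h group alone the attached record was the tighter, with a median difference between replicates of 0.214 in place of 0.308. For DMSO that difference was 0.308 in place of 0.221, and for 0h 0.328 in place of 0.236. Under the attached record the difference changes sign for 45 of the genes named below that were called under at least 1 of the records. Among them are Dusp2, Dusp4, Dusp6, Egr1, Fos, Phlda1, Bmp4 and Id2, so every direction given here holds for the value table's record.

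By limma with the replicate number as a block, 2835 of 15660 genes (18.1%) differed between 8h and DMSO at an adjusted p under 0.05. Of these, 1309 were higher at 8h (8.36% of the genes tested) and 1526 were lower (9.74%), and 623 and 418 of them differed by 2-fold or more. The median difference over all genes was -0.05. Without the block 1008 genes passed (6.44%), 524 higher (3.35%) and 484 lower (3.09%), and all 1008 were among the 2835. With each array scaled to its median, the split was 1571 higher and 879 lower. Without DMSO replicate 1, DMSO replicate 2, 8h replicate 1 or 8h replicate 2 the count was 1192, 1815, 1154 or 2858, and 824 of the 2835 kept their call under each of these. The difference was larger in replicate 1 than in replicate 2 for 1012 of the 1309 higher genes (77.3%) and for 989 of the 1526 lower genes (64.8%).

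The largest rises over vehicle included genes that were not well above background in DMSO. Aldh1a3, which makes retinoic acid from retinaldehyde, was not well above background on either DMSO array and lay at 1.39 and 0.58 at 8h (replicates 1 and 2), at least 59.9-fold higher (adjusted p = 5.57e-05). Such a bound sets the mean of the bright group against the dimmest signal that passed background on each array of the other group, or against the probe itself where it was brighter. Cyp26a1, which degrades retinoic acid, rose from -4.72 and -3.92 to 0.98 and 0.21, a difference of 4.92 ± 0.58 (SE; adjusted p = 0.000834). For these 2 genes the 8h arrays lay above the DMSO arrays by over 4 log2 units. Cyp26a1 was well above background on 1 of the 2 DMSO arrays. Genes of retinoic acid turnover were not counted as a list here.

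Npy, a neuropeptide precursor, rose by 6.31 ± 0.54 and Vgf, another neuropeptide precursor, by 4.95 ± 0.48 (adjusted p = 0.000271 and 0.000385). Tgfbr2, the type 2 receptor for TGF-beta, lay at -4.71 and -4.73 in DMSO and, at 8h, 1.01 and -0.18. Npy and Tgfbr2 were each well above background on 1 of the 2 DMSO arrays. The remaining members of the 12 largest rises were Krtdap (at least 45.8-fold), Ptgs2 (at least 18-fold), Mal (at least 22.9-fold), Tshz1, Cdx2 (at least 22.9-fold), Nppb and Phlda1. All 12 kept their call without any 1 of the 4 arrays and without the block. Of the 12, Krtdap and Mal (at least 4.06-fold and 2.65-fold) and Tshz1 and Tgfbr2 (by 2.01 and 1.66) had already been called higher in 0h vs DMSO, a comparison that shares the DMSO arrays.

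Among the 12 largest falls, Gabra3, a GABA receptor subunit, lay at -1.75 and -1.64 in DMSO and was not well above background on either 8h array, at least 10.1-fold lower (adjusted p = 0.000588). Hs6st2, an enzyme that adds sulphate to heparan sulphate chains, which FGFs need to bind their receptors, lay at 0.11 and 0.48 in DMSO, -2.50 and -2.61 at 0h and -3.07 and -3.36 at 8h. It was 3.51 ± 0.20 below vehicle (adjusted p = 5.57e-05) and below its 0h level too (adjusted p = 0.0464). Ccno, a cyclin-like protein needed for multiciliated cells, fell from 1.83 and 1.62 to -1.81 and -1.46.

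Of the 12 largest falls, 9 kept their call without any 1 of the 4 arrays. Syt13, a synaptotagmin, was one that did not: its 8h arrays lay at -6.47 and -1.56 against -0.78 and 0.04 in DMSO, and replicate 1 carried most of the difference of -3.64 ± 0.88. The others were Trim67 and Nsg2. The list also held Hoxb13 (at least 8.69-fold lower), Bhmt2, Ntf3 (at least 3.43-fold), Enpp2, Mmd2 and Glipr1l1 (at least 2.34-fold).

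**Figure D1:**
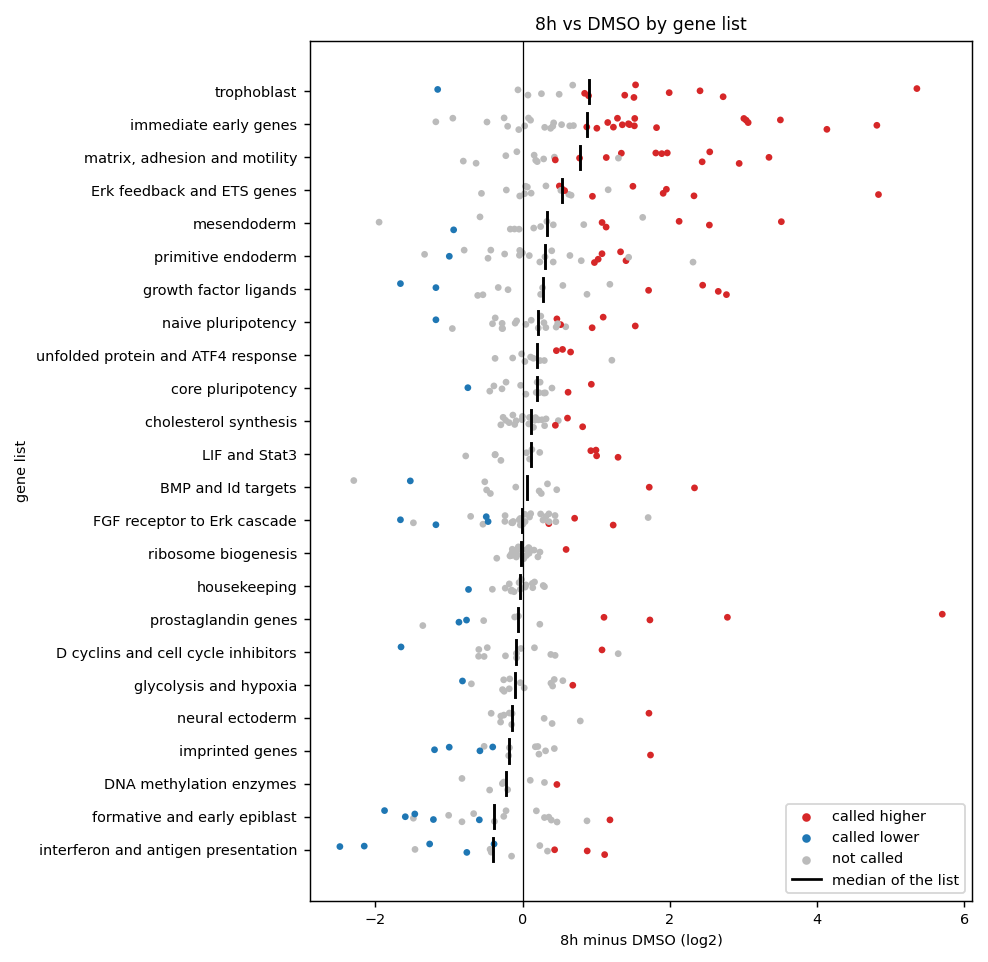
Difference between 8h and DMSO (x axis, log2) for each tested member of 24 gene lists (rows, ordered by the list's median, which is the black bar); points are red where called higher, blue where called lower and grey where not called. Immediate early genes, trophoblast genes and matrix genes have the medians farthest above 0, and the lists of formative and of interferon genes those farthest below.

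Brakes and ETS targets of Erk that were called at 8h were all above vehicle. Of 21 tested members of this list, 9 were higher than in DMSO and 0 lower by limma, against 8.36% and 9.74% of all genes (at an unadjusted p under 0.05 the lower count over all genes was 2938). The list's median difference was 0.53, or 0.79 in replicate 1 and 0.28 in replicate 2. At 0h the same list had 10 members called below vehicle and 1 above, against 6.62% and 8.35% of all genes, with a median of -0.80; the 0h and 8h comparisons share the DMSO arrays. Of the 9, Dusp2, Dusp4, Dusp6 and Phlda1 kept their call without any 1 of the 4 arrays, and without DMSO replicate 1 no other of them was called. Without the block only Phlda1 and Dusp2 were called.

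Phlda1, a pleckstrin homology domain protein induced by Erk, lay at 0.05 and -0.24 in DMSO, -0.62 and -1.17 at 0h and 5.25 and 4.24 at 8h. Its 8h arrays were both far above all DMSO and 0h arrays, by 4.84 ± 0.32 over vehicle (adjusted p = 8.32e-05). It had not been called in 0h vs DMSO (-0.80, adjusted p = 0.121).

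Dusp6, a cytoplasmic phosphatase that removes the activating phosphates from Erk, lay at 3.99 and 3.85 in DMSO, 2.66 and 1.44 at 0h and 5.95 and 4.89 at 8h. It had fallen by 1.87 with the inhibitor and stood 1.5 ± 0.24 above vehicle at 8h (adjusted p = 0.00352; 0.18 without the block). Dusp4, a nuclear phosphatase of the same family, went from 0.89 and 0.48 to -1.40 and -2.66 and then to 3.20 and 1.99. That put it 1.91 ± 0.20 above vehicle (adjusted p = 0.000564; 0.151 without the block). Dusp2, also nuclear, went from -0.99 and -1.05 to -2.55 and -2.78 and then to 1.33 and 1.29. Its replicates lay close together, and it ended 2.33 ± 0.27 above vehicle (adjusted p = 0.000794).

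Of the Sprouty genes, Spry4 lay at 0.27 and 1.07 in DMSO, -2.49 and -2.96 at 0h and 2.11 and 1.56 at 8h. Its arrays did not overlap between groups, but the difference from vehicle of 1.16 ± 0.36 missed the threshold (adjusted p = 0.0517). Spry2 passed it at 0.57 ± 0.15 (adjusted p = 0.0299), a call lost without DMSO replicate 1 or 8h replicate 1, when its adjusted p reached 0.22 at the most. Spry1 was back rather than past, at 2.66 and 2.63 in DMSO, 2.13 and 1.13 at 0h and 2.59 and 2.26 at 8h (-0.22 ± 0.22).

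Among the ETS factors, Etv1 returned to vehicle: it lay at 2.57 and 2.61 in DMSO, 0.81 and 0.12 at 0h and 2.87 and 2.45 at 8h, a difference of 0.07 ± 0.18 (95% interval within 1 log2 unit of 0). Etv4 had the largest fall with the inhibitor of the 3 factors, 3.01, and its 8h arrays at 5.98 and 4.95 were both above the DMSO arrays at 4.93 and 4.68. The difference of 0.66 ± 0.28 was not called (adjusted p = 0.141). Etv5 was called in neither comparison, at 7.0 and 6.69 in DMSO and 7.04 and 6.73 at 8h.

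**Figure D2:**
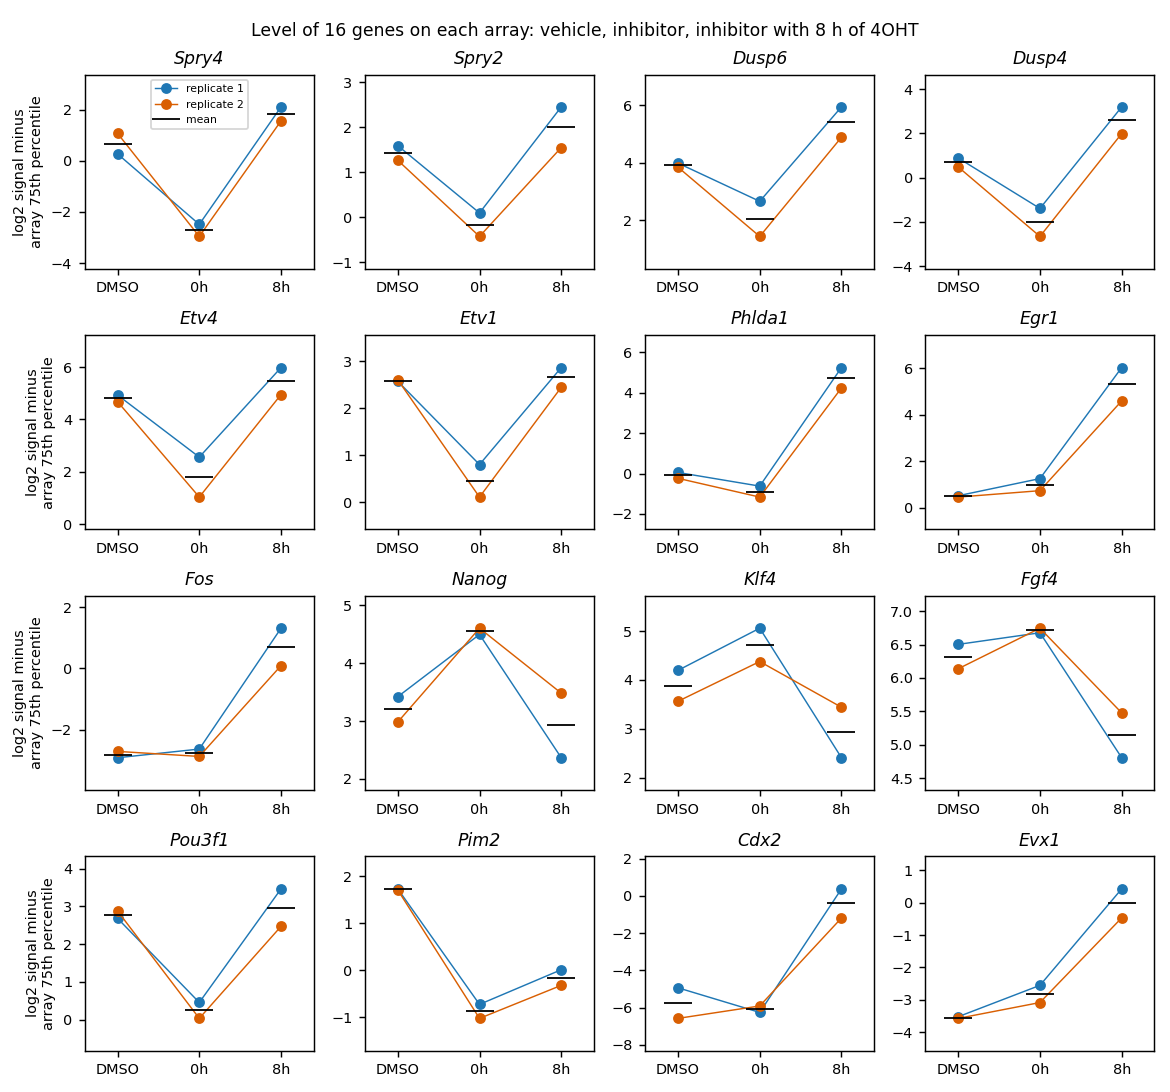
Level (log2 signal minus the array's 75th percentile; each panel has its own y scale) of 16 genes on the DMSO, 0h and 8h arrays; lines join arrays of the same replicate and black bars are the means of 2. Dusp4 and Dusp6 dip at 0h and end above DMSO, Etv1 and Pou3f1 end near DMSO, and Pim2 stays below it.

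Immediate early genes are the transcription factors and other proteins that cells switch on within minutes of a growth signal. They were the largest list and had the highest count of called rises. Of 33 tested members, 17 were higher at 8h than in DMSO and 0 lower, against 8.36% and 9.74% of all genes. The list's median difference was 0.87. At 0h 2 members were called higher and 3 lower, against 8.35% and 6.62% of all genes, with a median of 0.06. Of the 17, 11 kept their call without DMSO replicate 1, and 11 without 8h replicate 1.

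Egr1, a zinc finger factor, lay at 0.52 and 0.46 in DMSO, 1.25 and 0.74 at 0h and 6.02 and 4.59 at 8h (4.81 ± 0.28, adjusted p = 5.57e-05). Fos, a subunit of the factor AP-1, lay at -2.90 and -2.70 in DMSO and, at 8h, 1.31 and 0.09 (3.5 ± 0.32, adjusted p = 0.000341). Egr2 was not well above background in DMSO and was at least 7.0-fold higher at 8h. On all 3 genes both 8h arrays lay above both DMSO arrays, with replicate 1 the higher.

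Arc rose by 3.07 ± 0.32 and the AP-1 subunits Fosl1 and Fosl2 by 3.01 ± 0.60 and 3.04 ± 0.55, but the calls of Fosl1 and Fosl2 were lost without 8h replicate 1 (adjusted p = 0.0823 and 0.0566) and without DMSO replicate 1. Smaller rises were called for Junb, Ier3, Ier5, Nr4a1, Trib1, Zfp36, Zfp36l1, Csrnp1, Plk3, Klf6 and Ccn1, between 0.87 and 1.82. Relatives of these genes were not called: Fosb differed by 0.41 ± 0.45 and Egr4 by -1.18 ± 0.46, and Egr3 was not well above background in DMSO or at 8h. Myc had fallen by 2.46 with the inhibitor and lay at 3.51 and 2.39 at 8h against 2.4 and 2.13 in DMSO, a difference of 0.69 ± 0.27 that was not called (adjusted p = 0.113).

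Promoter sequences are shown for 3 immediate early genes that rose strongly, Egr2, Fos and Fosl2, and for Fgf4, the called fall among naive genes, so that genes moving in opposite directions can be set side by side. Phlda1, Egr1 and Arc, which rose more than Fosl2, are not shown. Each runs from 250 bases before to 50 bases after the annotated start (RefSeq, GRCm38.p6, plus strand). Capitals mark matches, on either strand, to the CArG box bound by serum response factor, to TGACG, the core of the site for CREB and ATF factors, and to CCGGAA, the core of the ETS site.

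Egr2 (chr10:67537316-67537615): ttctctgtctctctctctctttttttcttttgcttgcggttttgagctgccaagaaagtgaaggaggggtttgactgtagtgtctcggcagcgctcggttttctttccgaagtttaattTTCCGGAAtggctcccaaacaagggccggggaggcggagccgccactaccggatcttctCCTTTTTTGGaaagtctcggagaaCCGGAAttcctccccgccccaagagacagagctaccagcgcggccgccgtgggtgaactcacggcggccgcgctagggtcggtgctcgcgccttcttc
Fos (chr12:85473640-85473939): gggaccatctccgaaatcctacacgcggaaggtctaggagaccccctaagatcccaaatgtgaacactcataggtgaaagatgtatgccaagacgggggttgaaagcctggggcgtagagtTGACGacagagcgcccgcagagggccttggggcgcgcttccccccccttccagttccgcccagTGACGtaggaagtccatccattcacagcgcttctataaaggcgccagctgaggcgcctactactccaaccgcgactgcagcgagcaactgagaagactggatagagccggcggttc
Fosl2 (chr5:32136222-32136521): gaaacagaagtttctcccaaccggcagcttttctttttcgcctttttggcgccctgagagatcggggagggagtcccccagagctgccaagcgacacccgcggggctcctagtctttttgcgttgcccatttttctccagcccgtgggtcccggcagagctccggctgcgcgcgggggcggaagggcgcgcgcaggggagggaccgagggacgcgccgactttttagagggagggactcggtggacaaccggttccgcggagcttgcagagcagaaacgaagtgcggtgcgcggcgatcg
Fgf4 (chr7:144861136-144861435): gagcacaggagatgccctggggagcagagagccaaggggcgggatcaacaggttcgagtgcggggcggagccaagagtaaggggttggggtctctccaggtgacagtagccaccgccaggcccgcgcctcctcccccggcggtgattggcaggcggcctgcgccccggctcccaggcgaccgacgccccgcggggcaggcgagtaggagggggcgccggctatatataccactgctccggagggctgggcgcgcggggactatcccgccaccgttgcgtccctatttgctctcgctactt

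For Egr2, 4 of the 5 listed windows hold a CArG box. A window with the box was picked where a gene had one, so the Egr2 match follows from the choice. The box reads as a match on both strands. The Egr2 window also holds 3 matches to CCGGAA, of which 2 overlap on opposite strands. The Fos window holds 2 matches to TGACG, and the Fosl2 and Fgf4 windows hold none of the 3 motifs. Over all 32851 windows of the table, 1.63% hold a CArG box, 20.8% hold TGACG and 14.9% hold CCGGAA. A match describes letters in these windows and was not set against binding data. Sequence outside the windows was not searched, so a motif missing here may lie beyond them.

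Genes of the cascade that carries the signal were called in both directions, at shares near those of all genes. Of 32 tested genes from FGF receptors to Erk, 3 were called higher and 4 lower, against 8.36% and 9.74% of all genes, with a median of -0.01. Fgfr4, a receptor, lay at -0.69 and -0.79 in DMSO, -1.45 and -1.85 at 0h and 0.84 and 0.14 at 8h, a rise of 1.23 ± 0.16 (adjusted p = 0.0012).

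The adaptors Shc1 and Grb2 were higher by 0.71 ± 0.13 and 0.36 ± 0.09. Rps6ka2, a kinase that Erk activates, and the ligands Fgf3 and Fgf4 were among the called falls. Of the 7 called genes, Fgfr4 and Shc1 kept their call without any 1 of the 4 arrays, and 2 were called without the block.

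Of 15 tested growth factor ligands, 4 were higher and 2 lower, against 8.36% and 9.74% of all genes. Hbegf, a ligand of the EGF receptor, lay at 1.56 and 1.33 in DMSO and 5.0 and 3.43 at 8h (2.77 ± 0.39, adjusted p = 0.00198). Tgfb1 rose by 2.45 ± 0.21 and Areg, another EGF receptor ligand, was at least 1.47-fold higher. Bmp4 had fallen with the inhibitor, from 4.73 and 4.15 to 3.63 and 2.08, and stood at 6.74 and 5.57 at 8h, 1.71 ± 0.22 above vehicle (adjusted p = 0.00116; 0.241 without the block). All 4 rises held without any 1 of the 4 arrays.

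Of 12 tested BMP and Id genes, 2 were higher and 1 lower, against 8.36% and 9.74% of all genes. Id1, an inhibitor of basic helix-loop-helix factors and a target of BMP signals, lay at 2.97 and 3.32 in DMSO and 5.46 and 4.27 at 8h (1.72 ± 0.31), a call lost without 8h replicate 1 (adjusted p = 0.0503). Its relative Id2 went the other way, from 1.64 and 2.27 in DMSO up to 3.18 and 3.19 at 0h and down to 0.05 and 0.81 at 8h (-1.53 ± 0.26, adjusted p = 0.00438). Msx1, a homeobox gene, rose by 2.34 ± 0.32.

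Pluripotency genes were called in both directions. Of 23 tested naive genes, 5 were higher and 1 lower at 8h, and of 16 core genes 2 were higher and 1 lower, against 8.36% and 9.74% of all genes. The naive median was -0.15 in replicate 1 and 0.42 in replicate 2, and 0 naive genes were called without the block (unadjusted p-values under 0.05 in limma with the block: 2187 higher and 2938 lower genes over the whole array). Nanog lay at 3.42 and 2.98 in DMSO, 4.50 and 4.61 at 0h and 2.37 and 3.48 at 8h. One 8h array was below and the other above both DMSO arrays, and the difference of -0.28 ± 0.75 had an interval too wide to place it.

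Klf4 lay at 4.20 and 3.56 in DMSO and 2.41 and 3.44 at 8h, with both 8h arrays below both DMSO arrays but replicate 2 only just (-0.95 ± 0.60, adjusted p = 0.309). Esrrb differed by -0.28 ± 0.38, Tfcp2l1 by 0.04 ± 0.30 and Pou5f1, which encodes Oct4, by 0.29 ± 0.24, none of them called. Klf5 was the naive gene whose rise held without any 1 of the 4 arrays, from 4.77 and 4.20 to 5.88 and 4.98 (0.94 ± 0.16, adjusted p = 0.00499). The other called naive genes were Manba, Nr5a2, Pecam1 and Tet2, all higher.

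Fgf4, the ligand that drives the cascade in these cells, was the naive gene that fell, from 6.50 and 6.14 in DMSO to 4.81 and 5.48 at 8h. With the inhibitor alone it lay at 6.68 and 6.74, above both DMSO arrays. The fall of 1.18 ± 0.35 just passed the threshold (adjusted p = 0.0454) and was lost without 8h replicate 1, without DMSO replicate 1 or 2, and without the block, with adjusted p up to 0.276. Gbx2 had dropped with the inhibitor to -0.59 and -1.85 and stood at 2.77 and 1.58 at 8h against 2.08 and 1.1 in DMSO (0.59 ± 0.20, adjusted p = 0.073).

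In the core list Sox2 was higher by 0.62 ± 0.12, and Tdgf1, a co-receptor for Nodal, was lower (-0.74 ± 0.13). The call of Sox2 was lost without DMSO replicate 1 and without 8h replicate 1 (adjusted p up to 0.0729), and that of Tdgf1 without DMSO replicate 1 (adjusted p = 0.0516).

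Formative genes, which mark the step out of the naive state, were called below vehicle at 0h and, in smaller number, at 8h; the difference between these counts was not tested. Of 19 tested, 10 were called lower at 0h and 0 higher, against 6.62% and 8.35% of all genes, with a median of -1.12. At 8h 5 were called below vehicle and 1 above, against 9.74% and 8.36% of all genes, with a median of -0.38. Against 0h, 7 were called higher and 1 lower, against 8.33% and 12.7% of all genes. Of the 6 calls against vehicle, 0 held under each of the 4 removals of an array, and 1 held without the block.

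Pou3f1, which encodes the factor Oct6, lay at 2.68 and 2.88 in DMSO, 0.46 and 0.04 at 0h and 3.46 and 2.47 at 8h, back at vehicle (0.19 ± 0.32). Pim2, a kinase gene, was not: it lay at 1.73 and 1.71 in DMSO, -0.73 and -1.03 at 0h and 0.01 and -0.32 at 8h (-1.88 ± 0.37, adjusted p = 0.00876, and 0.0509 without DMSO replicate 2). Dnmt3b, a DNA methyltransferase, had fallen by 1.55 and was not placed by 8h (-0.82 ± 0.27, adjusted p = 0.0626), and neither was Fgf5, with 0.88 ± 0.33.

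Wnt8a, Car14, Lin28b and Sall2 were the other called falls, and Sox4 the called rise. Otx2, a homeobox factor of the formative state, differed by 0.36 ± 0.16 and was not called.

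Genes of several differentiated lineages were called higher. Of 15 tested trophoblast genes, 9 were higher than vehicle and 1 lower, against 8.36% and 9.74% of all genes. Their median difference was 0.90. At 0h 6 had already been called higher and 1 lower, against 8.35% and 6.62% of all genes. The homeobox gene Cdx2, which specifies trophoblast and later the posterior embryo, was not well above background in DMSO and lay at 0.38 and -1.18 at 8h. Tead4, which acts above Cdx2 in the embryo, rose from -0.53 and -0.57 to 2.69 and 1.66 (2.73 ± 0.27, adjusted p = 0.000401). The keratin gene Krt18 rose by 1.99 ± 0.29.

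Gata3 and Tfap2c were above vehicle at 8h by 2.41 ± 0.39 and 1.54 ± 0.28, but at 0h they had been above it by 2.29 and 2.15 already. Ascl2, a factor of trophoblast progenitors, was lower at 8h (-1.15 ± 0.15) and at 0h (-1.18). Without DMSO replicate 1 or 2, 6 of the 10 trophoblast calls remained, and 4 did without the block.

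Of 17 tested mesendoderm genes, 5 were higher and 1 lower, against 8.36% and 9.74% of all genes. Evx1, which encodes a homeobox factor of the streak, lay at -3.52 and -3.57 in DMSO and 0.42 and -0.47 at 8h (3.52 ± 0.26, adjusted p = 0.000163). Brachyury (T) was at least 2.24-fold higher and Hand1 rose by 2.13 ± 0.29, and these 3 held without any 1 array. Eomes and Mesp1 were the other called rises and Snai1 the called fall. Gsc was not well above background in DMSO, lay at -2.68 and -1.29 at 0h, and at 8h its arrays were far apart, at -7.05 and -3.77.

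Among 23 primitive endoderm genes 5 were higher and 1 lower, against 8.36% and 9.74% of all genes. At 0h 6 had already been called higher and 2 lower, against 8.35% and 6.62% of all genes. The list's median difference from vehicle was 0.51 at 0h and 0.30 at 8h. Lama1, a basement membrane laminin, lay at 3.10 and 3.57 in DMSO, 4.93 and 4.96 at 0h and 4.73 and 4.75 at 8h, so that its excess of 1.41 ± 0.18 over vehicle was of the size seen at 0h. Lamb1 and Sparc, also of the matrix, were higher by 1.03 ± 0.15 and 1.33 ± 0.16. The lineage factors Gata6 and Sox17 were not called (-0.47 ± 0.40 and -0.43 ± 0.39). In the neural list 1 of 11 was called, against 18.1% of all genes in either direction. It was Nes, higher by 1.72 ± 0.32.

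Of 21 tested matrix, adhesion and motility genes, 11 were higher and 0 lower, against 8.36% and 9.74% of all genes. Their median difference was 0.77. Without the block 6 were called higher, against 3.35% of all genes. At 0h 5 had already been called higher and 1 lower, against 8.35% and 6.62% of all genes. Plaur, the urokinase receptor, lay at 2.25 and 2.00 in DMSO and 5.88 and 4.25 at 8h (2.94 ± 0.31, adjusted p = 0.000564). Hmga2, a chromatin protein, rose by 2.54 ± 0.31, Cdh2, N-cadherin, by 1.89 ± 0.26, and the matrix protease gene Mmp9 was at least 5.49-fold higher. Timp1, an inhibitor of such proteases, rose by 1.34 ± 0.11. Of the 11, 7 held without any 1 array, Thy1 (1.81) among them.

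Called D-type cyclins went in opposite directions. Ccnd1 fell from 3.94 and 3.87 to 1.78 and 2.74 (-1.65 ± 0.32, adjusted p = 0.00806), and Ccnd2 rose from -0.23 and -0.46, by way of -1.49 and -2.23 at 0h, to 1.01 and 0.46 (1.08 ± 0.29, adjusted p = 0.0306). Neither call held without DMSO replicate 1 or 8h replicate 1, and that of Ccnd2 was also lost without 8h replicate 2. They were the called members of 14 tested cell cycle genes, against 18.1% of all genes called in either direction.

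In the prostaglandin list 4 of 11 were higher and 2 lower, against 8.36% and 9.74% of all genes. Ptgs2, the inducible cyclooxygenase, was not well above background in DMSO or at 0h and lay at -0.07 and -1.43 at 8h. Ptger2, a receptor for prostaglandin E2, rose from -4.04 and -3.85 to -1.13 and -1.20 (2.78 ± 0.23, adjusted p = 0.000233). In the LIF and Stat3 list 4 of 12 were higher and 0 lower, against the same shares of all genes. Of these 4, Bcl3 (1.30 ± 0.18) and Socs2 (1.01 ± 0.16) held without any 1 array.

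Which genes were back or past was counted among those the inhibitor had moved. In 0h vs DMSO 2344 genes (15.0%) were called, 283 of them 2-fold or more below vehicle (1.81% of the genes tested) and 464 2-fold or more above it (2.96%). A gene counts as past when 8h differed from DMSO in the direction opposite to the inhibitor's. It counts as back when 8h vs DMSO was not called, its 95% interval lay within 2-fold of vehicle and 8h vs 0h was called towards vehicle; as short when 8h was called on the inhibitor's side; and as undecided otherwise. These comparisons share arrays, so the classes are a description.

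Of the 283 lowered genes, 42 were past vehicle, 60 back, 107 short and 74 undecided, which makes 36.0% back or past (0.651% of the genes tested). Their median difference from vehicle was -1.40 at 0h and -0.48 at 8h, a median of 67.3% of the fall regained. The 8h mean was at or above vehicle for 98 genes, for 117 by replicate 1 and for 83 by replicate 2. Of the 464 raised genes, 7 were past, 115 back (7 of them not well above background in both groups), 190 short and 152 undecided, or 26.3% back or past (0.779% of the genes tested), and a median of 61.1% of the rise had been reversed. Their 8h mean was at or below vehicle for 83 genes, for 172 by replicate 1 and for 41 by replicate 2. The smallest inhibitor changes inside the limit were 1.00 for Adam23 and for Tmem130, and the largest outside it were 0.9999 for Pabpc1l and for Chpt1.

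The share back or past moved with single arrays. Without 8h replicate 1 it was 22.9% of the lowered and 11.6% of the raised genes, without 8h replicate 2 it was 33.8% and 29.8%, and without 0h replicate 1 it was 12.7% of the raised genes. The past count of lowered genes fell without either DMSO array, either 0h array or 8h replicate 1, and it rose without 8h replicate 2. Without the block it was 8 of 116. The past count of raised genes was 34 without 8h replicate 2 and between 1 and 10 without any other 1 of the 6 arrays. Genes were also chosen by a 2-fold fall in 1 replicate and placed by the other. Chosen in replicate 1, 30.4% of 431 were at or above vehicle, and chosen in replicate 2, 41.8% of 473. Of genes chosen by a 2-fold rise in the same way, 29.8% of 805 and 44.6% of 639 were at or below vehicle. Of the 464 raised genes of the position classes, 37.1% were at or below vehicle by replicate 1 and 8.84% by replicate 2. Of the 283 lowered genes, 41.3% and 29.3% were at or above it. The choice in 1 replicate took other genes, so its shares are no check on those of the classes.

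**Figure D3:**
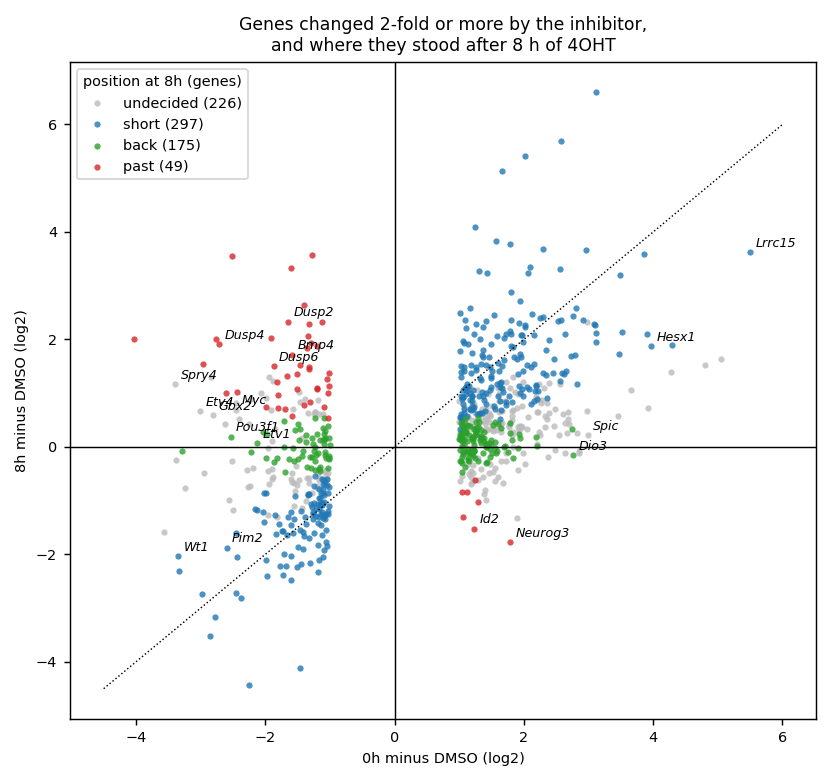
Difference from DMSO at 0h (x axis, log2) and at 8h (y axis, log2) for the 747 genes that the inhibitor changed 2-fold or more, coloured by position at 8h with the number of genes in each class; both axes share the DMSO arrays, and the dotted line marks no change between 0h and 8h. On the left, genes such as Dusp4 and Dusp2 lie above 0, and on the right the 7 genes past vehicle, Id2 and Neurog3 among them, lie below it.

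Among the lowered genes that ended past vehicle, the largest falls with the inhibitor belonged to Col6a5, Ccdc3, Nlrc4, Dusp4, Aadac, Grm6, Robo4 and Pmaip1. Nlrc4, an inflammasome sensor, lay at -0.54 and -1.36 in DMSO, -3.07 and -4.37 at 0h and 1.70 and 0.41 at 8h (2.00 ± 0.18, adjusted p = 0.000336). Grm6, a glutamate receptor, stood at -4.13 and -4.29 in DMSO, was not well above background at 0h and reached -0.14 and -1.16 (3.56 ± 0.62). Of these 8, Nlrc4, Dusp4 and Grm6 kept the call without any 1 array. Pmaip1, which encodes the death-promoting protein Noxa, ended 0.75 ± 0.20 above vehicle, and Robo4, a receptor of the Roundabout family, 1.02 ± 0.21 above it.

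Genes that came back to vehicle included Enpp3, an ectoenzyme, at 3.34 and 3.01 in DMSO, 1.28 and 0.61 at 0h and 3.42 and 2.72 at 8h (-0.10 ± 0.15). Slc7a7, a carrier of cationic amino acids, lay at 5.66 and 5.57, 4.02 and 3.12, and 6.17 and 5.60 on the same arrays (0.27 ± 0.22). In Enpp3 the 8h arrays lay on either side of the DMSO arrays, and in Slc7a7 both lay above the lower DMSO array. The others with the largest inhibitor falls were Slc9a7, Pou3f1, Etv1, Rhd, Pkdcc and Galnt3, with differences from vehicle between -0.29 and 0.23.

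Other lowered genes did not return. Wt1, a zinc finger factor, lay at 1.02 and 0.76 in DMSO, -2.24 and -2.66 at 0h and -0.89 and -1.39 at 8h, a difference from vehicle of -2.03 ± 0.19 (adjusted p = 0.000355). Enpp2, which encodes autotaxin, lay at 1.97 and 1.77, -0.18 and -1.63, and -1.03 and -1.55. Ptpn5, a phosphatase that acts on Erk, was above background in DMSO only and was at least 1.48-fold lower at 8h. Vrtn, Hs6st2, Pim2, Wnt8a and Nell1 completed the 8 with the largest inhibitor falls, and 5 of the 8 calls held without any 1 array. Of all 107 short genes, 86 had no called change between 0h and 8h and 10 had moved further from vehicle.

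Among raised genes the 7 past vehicle were Neurog3, Dhrs3, Prmt8, Id2, Rasgrp1, Eif4e1b and Casc1. Neurog3, a neurogenic factor, lay at -0.05 and 1.11 in DMSO, 1.75 and 2.89 at 0h and -2.48 and -0.01 at 8h, with 8h replicate 2 inside the range of the DMSO arrays. Id2 and Eif4e1b kept the call without any 1 array, and none of the 7 was called without the block. Dio3, a deiodinase that inactivates thyroid hormone, was back, at -4.14 and -3.75 in DMSO, -1.47 and -0.91 at 0h and -4.63 and -3.58 at 8h. So were Slc32a1, Gpr146 and Bhmt, with differences from vehicle of 0.17 ± 0.22, 0.17 ± 0.25 and 0.24 ± 0.30. Wnt3, Sv2c, Pitx1 and Dmrt2 were also counted as back, with both groups not well above background.

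Among raised genes that were still above vehicle, the largest change with the inhibitor was that of Lrrc15, a membrane protein with leucine-rich repeats, at -5.10 and -4.34 in DMSO, 0.36 and 1.20 at 0h and -2.0 and -0.20 at 8h (3.62 ± 0.24, adjusted p = 8.45e-05). Hesx1, a homeobox repressor, lay at -3.96 and -2.89, -0.09 and 1.17, and -2.60 and -0.50, a difference of 1.87 ± 0.31. Lrrc15 differed from 0h by -1.88 and Hesx1 by -2.09. Ly6a and Ly6c1, surface antigens of the Ly6 family, had not: they were 3.58 ± 0.64 and 3.20 ± 0.55 above vehicle and differed from 0h by -0.27 and -0.28 (adjusted p = 0.804 and 0.76). Calcoco2, Pdlim4, Igf1 and Pga5 were the remaining ones of the 8.

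**Figure D4:**
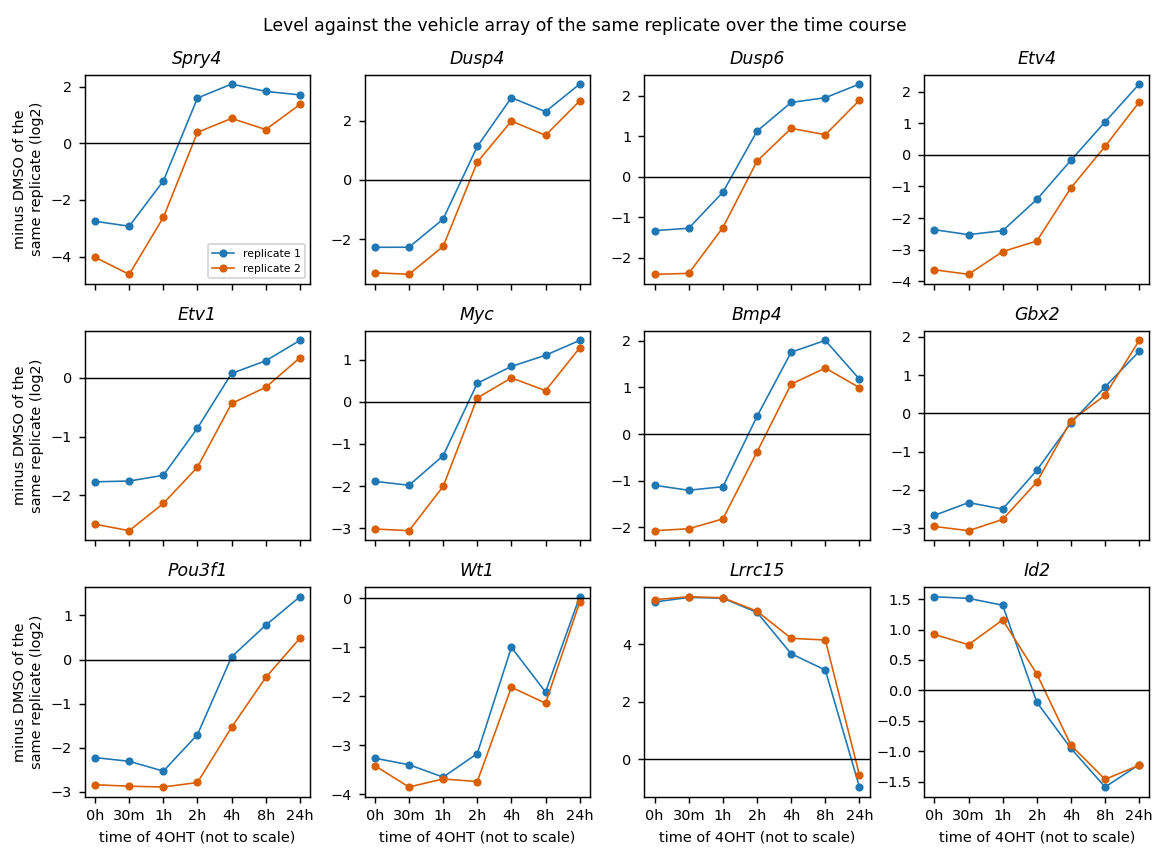
Level minus that of the DMSO array of the same replicate (y axis, log2; each panel has its own scale) for 12 genes over the 7 time points of 4OHT from 0h to 24h (x axis, not to scale), 1 line per replicate; the horizontal line is the vehicle level. Spry4, Dusp4 and Dusp6 lie above vehicle by 2h, Etv4 and Gbx2 by 8h, and Wt1 is near it at 24h.

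The genes past vehicle at 8h mostly crossed it between 2h and 4h. Of the 42 lowered genes that ended past, 0 had a mean at or above vehicle at 30m or 1h, 6 at 2h, 29 at 4h and 40 at 24h. Of the 60 that were back, the counts were 0, 0, 1, 6 and 49. Spry4 passed the vehicle mean at 2h (1.00 above) and Dusp4 too (0.87), whereas Etv4 differed from it by -2.07 at 2h, -0.61 at 4h and 0.66 at 8h. Pou3f1 differed by -0.74 at 4h, and Wt1 was level with vehicle at 24h (-0.03).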

How the data were processed

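RNA of each sample was read in 1 colour (green) on Agilent mouse arrays with mm9 probe annotation and Feature Extraction 11.0.1.1, per the file headers; the labels name Cy5. The deposited scanner files give a processed intensity, corrected for local background by the authors' scanner software, and each column of the authors' value table equals the processed intensity of 1 file, rounded. From these, log2 of the processed intensity minus each array's 75th percentile was computed here; control and outlier spots were left out and spots of a probe averaged. Of 55681 probes, 27656 matched 1 gene and 28025 none (transcript accession, RefSeq GRCm38.p6). A gene was its brightest probe, and a gene was kept where some group had it well above background on each array. The 2 arrays a group limit the precision.

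Limma 3.58.1 (R 4.3.3) fitted 8 group means and the replicate number over all 16 arrays (7 residual degrees of freedom), with Benjamini-Hochberg adjustment over 15660 genes. The replicate number is also the slide. Differences between replicates correlated between groups (0.328 to 0.659 over 28 pairs of groups), so the numbers were taken as pairing the arrays. The fit was tested on simulated data. Named genes were the 12 largest rises and falls called in both replicates, the 8 genes moved most by the inhibitor in each position class, called list members and a fixed set; Adam23, Tmem130, Pabpc1l and Chpt1 were chosen after their values were seen. The comparison and the gene lists were chosen with earlier results of these data known. Some genes of the lists are counted but not reported by name here.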

Additional observations from a re-analysis of the deposited data

How the results depend on the processing

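Scaling (median, quantile), the value table's own numbers, normexp correction, the filter on dim probes and the median over probes left the count of 8h vs DMSO between 2329 and 3093, within 1.5 times of 2835. It was 1008 without the replicate block, 478 with only the DMSO, 0h and 8h arrays, 368 with arrays as attached to the scanner files, 1041 with a 2-fold minimum and 1154 to 2858 without 1 array. Median scaling moved the share of higher genes among the calls from 46.2% to 64.1%, and from 55.8% to 68.5% in 0h vs DMSO. The counts of the other comparisons under these settings were chosen after seeing the data. For 0h vs DMSO they were 548, 99 and 6 in the order block, 6 arrays and attached record, and 708 to 2602 without 1 array. For 8h vs 0h they were 1056, 383 and 439, and 702 to 3773.

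The share of lowered genes back or past was 20.69% without the block, 55% with normexp, 21.55% with a 1.5-fold limit for back, 28.64% with no minimum change by the inhibitor and 22.87% to 44.44% without 1 array. With the attached record no lowered gene qualified, so it gave no value. The share of raised genes was 14.66% without the block, 18.33% with 6 arrays, 44.49% with normexp, 32.96% with genes above background on all 6 arrays, 0% of 6 genes with the attached record, 5.39% with the 1.5-fold limit, 37.57% with no minimum and 11.63% to 33.89% without 1 array. The cause of these moves was not tested.

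Of 170 named genes, 131 were called, and 57 lost the call without the block that pairs the arrays. Each group has 1 array per replicate, so the block does not alter the difference of a gene measured on all arrays. No sign could turn for such a gene. The attached record turned the sign of 45 genes that were called under at least 1 of the records. Sign changes of genes called under neither were not counted, and genes not tested under that record were left out. On the log2 scale, 8h minus DMSO was then Aadac -0.559, Arc -1.137, Ascl2 0.592, Bmp4 -1.076, Car14 0.767, Casc1 0.643, Ccn1 -0.103, Ccnd2 -0.513, Col6a5 -0.057, Csrnp1 -0.186, Ddx58 -0.135 and Dhrs3 0.086. It was further Dusp2 -0.283, Dusp4 -1.813, Dusp6 -1.381, Egr1 -0.554, Egr2 -1.639, Eif4e1b 0.542, Evx1 -0.06, Fos -0.811, Hbegf -0.088, Id2 0.371, Junb -0.773 and Klf5 -0.526. The next values were Manba -0.328, Neurog3 1.864, Nlrc4 -0.956, Nr4a1 -0.035, Ntf3 0.329, Phlda1 -0.092, Plaur -0.269, Plk3 -0.324, Pmaip1 -0.608, Prmt8 0.564, Rasgrp1 0.738 and Robo4 -0.584. The last were Snai1 0.567, Socs2 -0.222, Sox4 -0.374, Spry2 -0.937, Syt13 0.183, Tet2 -0.121, Trib1 -0.495, Zfp36 -0.53 and Zfp36l1 -0.454. With 2 arrays a group, small differences are not resolved.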

Other observations

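Of 14 tested genes of interferon response and antigen presentation, 5 were lower at 8h than in DMSO and 3 higher, against 9.74% and 8.36% of all genes, with a median difference of -0.41. Bst2, an antiviral membrane protein, lay at 4.49 and 4.07 in DMSO, 2.70 and 2.16 at 0h and 3.22 and 2.82 at 8h (-1.26 ± 0.12, adjusted p = 0.000355). Tap1, a peptide transporter for class I antigen presentation, lay at -2.84 and -3.18, -4.29 and -4.35, and -5.32 and -5.01 (-2.15 ± 0.24), so it was lower at 8h than at 0h as well. Ddx58, which encodes the RNA sensor RIG-I, went from 3.20 and 3.16 to 2.47 and 1.96 and then up to 4.75 and 3.84 (1.12 ± 0.22). Of the 8 calls 5 held without any 1 array, namely Bst2, Tap1, Oasl2, H2-K1 and Ifitm1.

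Of 13 tested imprinted genes 4 were lower and 1 higher, against 9.74% and 8.36% of all genes. Dlk1, a Notch ligand relative, lay at 0.79 and 1.20 in DMSO, 0.04 and -0.13 at 0h and -0.17 and -0.24 at 8h (-1.20 ± 0.17), and Plagl1, a zinc finger factor, at 0.31 and 0.06, 1.6 and 1.15, and 2.35 and 1.49 (1.74 ± 0.21). Both held without any 1 array. Against 18.1% of all genes called in either direction, lists of general metabolism and growth had these counts: 3 of 22 cholesterol genes, 1 of 22 ribosome biogenesis genes, 3 of 12 genes of the unfolded protein and ATF4 response and 1 of 8 DNA methylation genes were higher and none lower, while 1 of 14 glycolysis genes was higher and 1 lower; unadjusted p-values under 0.05 were found for 2938 lower genes over the whole array by limma. Of 17 housekeeping genes 1 was lower, Gusb (-0.74 ± 0.10).

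Among 2-cell-like markers, which mark a rare state of stem cell cultures, 5 of 9 were tested. By limma 0 of them were called, against 18.1% of all genes. Map2k2, which encodes Mek2, lay at 0.32 on DMSO replicate 1 and between 3.54 and 3.80 on the other 5 arrays of DMSO, 0h and 8h.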
